A study of Mus musculus with 12 samples.

Results

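The interferon regulatory factors (IRFs) and the signal transducers and activators of transcription (STATs) were examined in primary bone marrow stroma, the adherent layer of support cells that grows out of plated marrow. Every probe set was taken whose platform annotation gives a single gene symbol made of Irf or Stat and a number. The rule found 5 of 1974 genes, measured by 6 of the 3109 probe sets analysed. They are Irf7 (1417244_a_at), Irf9 (1421322_a_at), Irf1 (1448436_a_at), Stat3 (1459961_a_at) and a pair of probe sets of Stat2 (1450403_at and 1421911_at). The Stat2 pair is annotated to the same transcript record, so its values are not independent. The other IRF and STAT genes were not analysed here. Irf2bp2 (1454665_at) encodes a protein that binds IRF2 and is not itself an IRF, so it is described apart and left out of the counts of members.

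Gene expression was measured on 12 Affymetrix arrays, 4 of Crebbp+/- stroma, 4 of Ep300+/- stroma and 4 of wild-type (WT) stroma. Crebbp and Ep300 encode related histone acetyltransferases that serve as coactivators for many transcription factors, and each line is heterozygous at the gene it is named for. All donors were C57BL/6 mice aged 3 to 4 months. In all groups the marrow had been kept in culture for 2 weeks and the layer had then received 1500 cGy of irradiation, so no group shows unirradiated stroma. How the alleles were built, and whether mice were pooled, is not given in the labels. The arrays of a genotype are labelled as biological replicates, without saying whether each came from a separate mouse or culture, so p-values measure the spread between these samples. Values are deposited log2 expression levels, which are relative and are compared only within a probe set.

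IRFs and STATs carry signals from pathogen sensors and cytokine receptors to genes. IRF7 is best known for switching on type I interferon genes and is itself induced by interferon, while STAT2 and IRF9 are subunits of the complex ISGF3, which binds the interferon-stimulated response element (ISRE) of antiviral genes. IRF1 is induced by interferon gamma and by inflammatory signals through NF-kB, and STAT3 acts downstream of the IL-6 family of cytokines. In marrow, interferons act on stroma, macrophages and blood progenitors, and CREBBP and EP300 are known partners of STAT2, of IRF proteins and of NF-kB.

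Array medians lay between 7.98 and 8.43 on the log2 scale, and no pair of arrays correlated above 0.964 across probe sets. Crebbp lay between 7.67 and 7.88 on the Crebbp+/- arrays, between 8.48 and 8.73 on the Ep300+/- arrays and between 8.45 and 8.59 on the WT arrays. Whether its probe set lies within the targeted part is not known here. No analysed probe set measures Ep300, which leaves the Ep300+/- labels unchecked. The Y-linked transcript Eif2s3y was at 2.73 on Crebbp+/- 1 and 2.69 on Crebbp+/- 3, against 8.41 to 10.84 on the other arrays. Results for Irf7, Irf1, the counts and some gene lists are therefore also given without those arrays. Single fold changes of Stat2, Irf9 and Stat3, and the marker lists, are not given without them. Of the marker lists, 9 of 14 stromal, 8 of 20 macrophage and 13 of 14 endothelial genes were measured, and 0 of 14 dendritic, 0 of 15 lymphoid and 0 of 10 granulocyte genes. The mean log2 level of the stromal list was 9.54 to 10.72 in Crebbp+/-, 8.88 to 10.29 in Ep300+/- and 9.57 to 10.65 in WT stroma. That of the macrophage list was 11.59 to 12.05 in Crebbp+/-, 11.28 to 12.05 in Ep300+/- and 11.27 to 11.85 in WT stroma, so these cultures held macrophage transcripts in all groups. In such bulk samples, fewer cells of a type and less RNA per cell cannot be told apart.

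Irf7 was high on the Crebbp+/- arrays. Its log2 level was 11.15, 10.56, 10.83 and 10.10 on Crebbp+/- arrays 1 to 4, and 7.81, 8.69, 9.25 and 7.68 on Ep300+/- arrays 1 to 4, against 8.30, 8.38, 8.79 and 8.11 on WT arrays 1 to 4. All 4 Crebbp+/- arrays lay above all 8 others, while the Ep300+/- arrays reached both above and below the WT range. The means were 10.66 ± 0.45 in Crebbp+/-, 8.36 ± 0.74 in Ep300+/- and 8.39 ± 0.29 in WT stroma (SD, n = 4 each). Irf7 thus rose 4.82-fold in Crebbp+/- against WT stroma (limma adjusted p = 0.0128, log2 fold change 2.27, SE 0.37) and stood 9th of 3109 probe sets by p. It was 4.94-fold higher in Crebbp+/- than in Ep300+/- stroma (log2 fold change 2.30, SE 0.37, limma adjusted p = 0.0116). Between Ep300+/- and WT stroma the log2 fold change was -0.033 (SE 0.37, limma adjusted p = 0.998). In the order of levels, Crebbp+/- came first, and WT and Ep300+/-, its lower neighbours, did not differ beyond their spread. By exact permutation of the 8 arrays compared, two-sided p was 0.0286 for Crebbp+/- against WT and for Crebbp+/- against Ep300+/-, the smallest that 4 against 4 arrays allow, and it was 0.914 for Ep300+/- against WT. Adjusted over the 6 such tests run on Irf7 and Irf1, these were 0.0857, 0.0857 and 0.914.

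Taken by replicate number, Irf7 was higher in Crebbp+/- than in WT stroma by 2.85, 2.19, 2.05 and 1.99 log2 units for numbers 1 to 4. The limma call against WT was lost without Crebbp+/- 1 (adjusted p = 0.0561), Crebbp+/- 2 (0.0503) or WT 4 (0.0501), with fold changes without any 1 array between 2.11 and 2.46 log2 units. Against Ep300+/- stroma it was lost without Crebbp+/- 1 (limma adjusted p = 0.0529) or Ep300+/- 1 (0.0547). Without both arrays low in Eif2s3y the Irf7 fold change was 1.94 log2 units with 2 Crebbp+/- arrays left (limma adjusted p = 0.228), and those arrays, at 10.56 and 10.10, still lay above all WT and all Ep300+/- arrays.

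**Figure D1:**
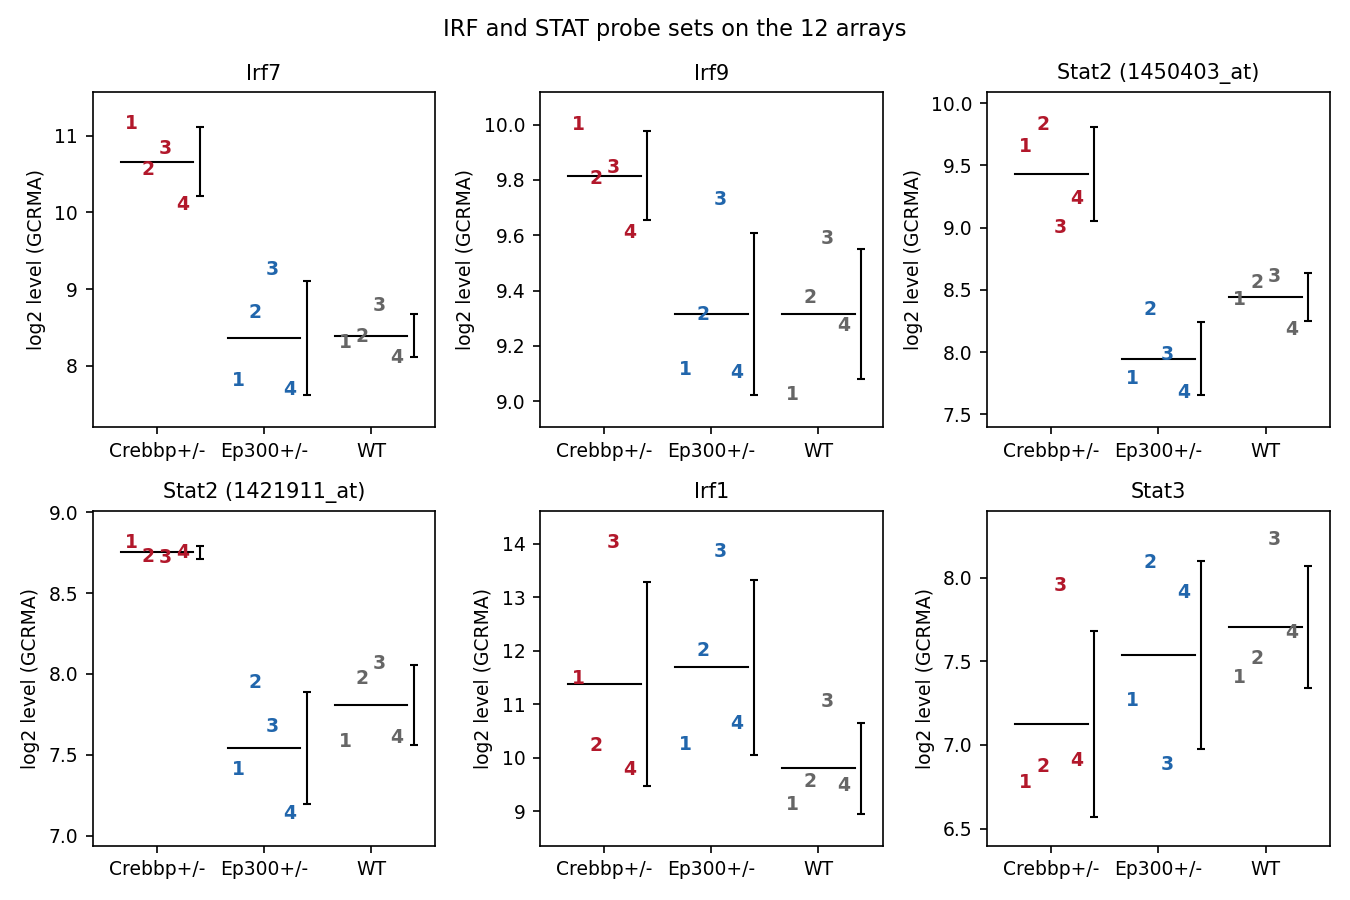
Log2 expression level (y axis) of the 6 IRF and STAT probe sets in Crebbp+/-, Ep300+/- and WT stroma, 1 panel each. Points are arrays marked by replicate number, and bars show the mean with its SD (n = 4). Irf7 and both Stat2 probe sets show Crebbp+/- arrays above all others, whereas Irf1 spreads widely within each heterozygote.

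Irf1 followed another pattern. Its log2 level was 11.48, 10.24, 14.03 and 9.77 on Crebbp+/- arrays 1 to 4, and 10.25, 12.01, 13.86 and 10.64 on Ep300+/- arrays 1 to 4, against 9.12, 9.55, 11.05 and 9.49 on WT arrays 1 to 4. Array 3 was the highest of its genotype in every group, and the heterozygous arrays overlapped with WT because WT 3 lay above Crebbp+/- 2 and 4 and above Ep300+/- 1 and 4. The means were 11.38 ± 1.91 in Crebbp+/-, 11.69 ± 1.63 in Ep300+/- and 9.80 ± 0.86 in WT stroma (SD, n = 4 each). Without array weights or a replicate block, Irf1 did not pass the limma test in any comparison. Its log2 fold change was 1.58 in Crebbp+/- against WT (SE 0.93, adjusted p = 0.288), 1.88 in Ep300+/- against WT (SE 0.93, adjusted p = 0.965) and -0.31 in Crebbp+/- against Ep300+/- (SE 0.93, adjusted p = 0.903). The exact permutation p was 0.171, 0.0857 and 0.743 in the same order, and 0.257, 0.171 and 0.891 adjusted over the 6 tests. In the order of mean levels, Ep300+/- came first, then Crebbp+/-, then WT, and no pair of neighbours differed beyond their spread.

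By replicate number the Irf1 differences from WT were positive for all 4 numbers in both heterozygotes, at 2.36, 0.69, 2.98 and 0.29 log2 units in Crebbp+/- and at 1.13, 2.46, 2.80 and 1.15 in Ep300+/- stroma. Blocking on the replicate number gave a limma adjusted p of 0.0431 for Crebbp+/- against WT, where 26.1% of all probe sets passed so. Array weights without the block gave 1.71 log2 units there (limma adjusted p = 0.0474), so the call depends on the fit chosen. For Ep300+/- against WT, where not every pair of same-numbered arrays deviated together, the replicate block gave a limma adjusted p of 0.209. The sizes moved with array 3, the highest of each genotype. Without Crebbp+/- 3 the fold change against WT was 0.70 log2 units, and without Ep300+/- 3 that of Ep300+/- was 1.16. Both of these fits kept WT 3. Without WT 3 alone the fold changes were 2.00 in Crebbp+/- and 2.30 in Ep300+/- against WT. No fit left number 3 out of both sides of a comparison with WT. Without the arrays low in Eif2s3y, which include Crebbp+/- 3, the Irf1 fold change was 0.20 log2 units in Crebbp+/- against WT.

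Set side by side, Irf7 separated the Crebbp+/- arrays from the rest and Irf1 did not. The 4 highest Irf7 levels belonged to Crebbp+/- 1, 3, 2 and 4, while the 4 highest Irf1 levels belonged to Crebbp+/- 3, Ep300+/- 3, Ep300+/- 2 and Crebbp+/- 1. Ep300+/- 3 shows the contrast best, since its Irf1 level of 13.86 was near that of Crebbp+/- 3 at 14.03, whereas its Irf7 level was 9.25 against 10.83. Within genotypes the genes were not unrelated. The correlation of their deviations from the genotype means was 0.786 over the 12 arrays and 0.846 without Crebbp+/- 3 and Ep300+/- 3. Over the 8 arrays that are not Crebbp+/-, Pearson's r was 0.707 and Spearman's rho 0.571, and r was 0.586 without Ep300+/- 3 and 4, the arrays farthest from the Irf7 median. These coefficients are descriptions of arrays that share normalization and replicate numbers, and no p is attached to them. Against WT, then, in the fit without block or weights, Irf7 passed in Crebbp+/- and not in Ep300+/- stroma and differed between the heterozygotes. In the same fit neither heterozygote passed for Irf1, and their difference did not pass either.

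**Figure D2:**
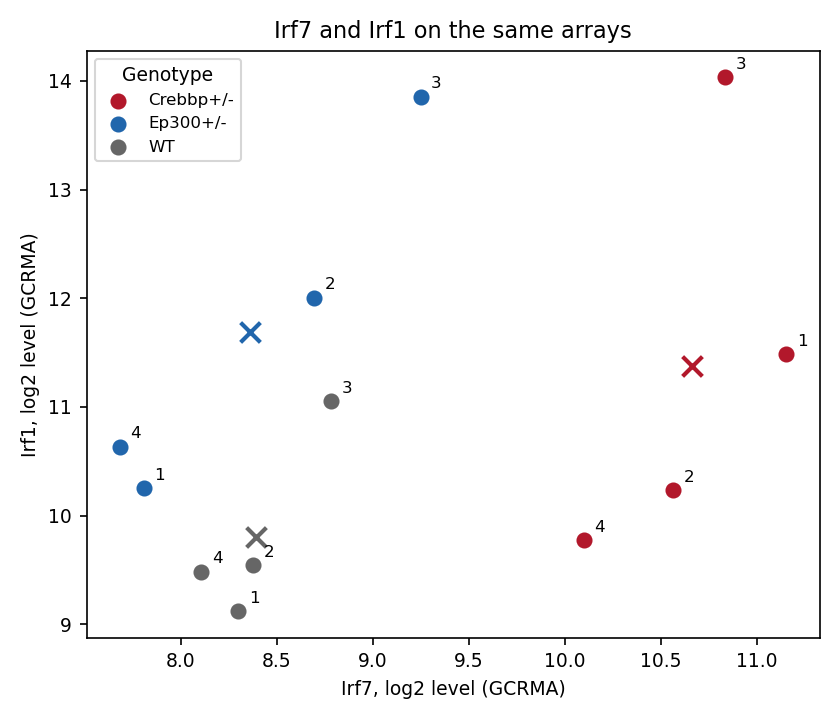
Irf7 (x axis) against Irf1 (y axis) log2 level on the 12 arrays, with points labelled by replicate number and crosses at the genotype means. The 4 Crebbp+/- arrays lie at the right from 10.10 upward, and Crebbp+/- 3 and Ep300+/- 3 lie at the top near 14.03 and 13.86.

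Stat2 followed Irf7. By probe set 1421911_at the Stat2 log2 level was 8.81, 8.73, 8.72 and 8.75 on Crebbp+/- arrays 1 to 4, and 7.41, 7.94, 7.68 and 7.14 on Ep300+/- arrays 1 to 4, against 7.58, 7.97, 8.07 and 7.61 on WT arrays 1 to 4. By probe set 1450403_at it was 9.65, 9.83, 9.0003 and 9.24 in Crebbp+/-, and 7.79, 8.34, 7.98 and 7.67 in Ep300+/-, against 8.42, 8.56, 8.60 and 8.18 in WT stroma. By either probe set every Crebbp+/- array lay above every other array. The means were 8.75 ± 0.042 and 9.43 ± 0.38 in Crebbp+/-, 7.54 ± 0.35 and 7.95 ± 0.29 in Ep300+/-, and 7.81 ± 0.25 and 8.44 ± 0.19 in WT stroma (SD, n = 4 each, 1421911_at before 1450403_at). Stat2 rose 1.93-fold by 1421911_at (limma adjusted p = 0.0372, log2 fold change 0.95, SE 0.24) and 1.98-fold by 1450403_at (0.99, SE 0.26, limma adjusted p = 0.0423) in Crebbp+/- against WT stroma. Against Ep300+/- stroma it was higher by 1.21 (SE 0.24, limma adjusted p = 0.0170) and 1.48 log2 units (SE 0.26, limma adjusted p = 0.0127). The calls against WT rest on the scaling and on single arrays. They were lost after quantile normalization (limma adjusted p = 0.0807 for both probe sets) and after median centring (limma adjusted p = 0.0754 and 0.0741), while those against Ep300+/- kept to the same side. Leaving out 1 array at a time kept the call against WT in 4 of 12 fits for 1421911_at and in 3 of 12 for 1450403_at, with log2 fold changes of 0.87 to 1.03 and 0.85 to 1.13. Against Ep300+/- stroma both calls were lost without Crebbp+/- 1 or Ep300+/- 1, and that of 1421911_at also without Crebbp+/- 2. In fits of only the 2 genotypes compared, 1450403_at lost its call against WT (limma adjusted p = 0.0608) and 1421911_at its call against Ep300+/- (limma adjusted p = 0.0585). With Eif2s3y as a covariate both calls against WT were lost (limma adjusted p = 0.289 and 0.269, 1421911_at first). Both calls against Ep300+/- were lost too (limma adjusted p = 0.177 for both).

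In Ep300+/- against WT stroma the Stat2 log2 fold changes were -0.50 by 1450403_at (SE 0.26, limma adjusted p = 0.965) and -0.26 by 1421911_at (SE 0.24, limma adjusted p = 0.965). By replicate number all 4 differences were negative for each probe set, from -0.63 to -0.22 and from -0.47 to -0.026 log2 units. Stat2 and Irf1 are thus unlike in Ep300+/- stroma, where the Stat2 values lean below WT and the Irf1 values above it, without either passing the test.

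Irf9, the DNA-binding subunit of ISGF3, did not pass the test in any comparison. Its log2 level was 10.001, 9.80, 9.85 and 9.61 on Crebbp+/- arrays 1 to 4, and 9.11, 9.32, 9.73 and 9.10 on Ep300+/- arrays 1 to 4, against 9.03, 9.37, 9.59 and 9.27 on WT arrays 1 to 4. Each Crebbp+/- array lay above each WT array, although Crebbp+/- 4 at 9.61 and WT 3 at 9.59 nearly met, and Ep300+/- 3 at 9.73 lay within the Crebbp+/- range. The log2 fold change was 0.50 in Crebbp+/- against WT (SE 0.24, limma adjusted p = 0.193) and 0.50 in Crebbp+/- against Ep300+/- (SE 0.24, limma adjusted p = 0.210). For Ep300+/- against WT it was 0.00073 (limma adjusted p = 0.999). The value of Crebbp+/- against WT was 0.20 after quantile normalization and 0.30 after median centring. With array weights Irf9 passed, at 0.63 against WT (limma adjusted p = 0.0132) and 0.68 against Ep300+/- (limma adjusted p = 0.00440). The weights were 5.27 for Crebbp+/- 1 and 1.13, 0.454 and 0.434 for Crebbp+/- 2 to 4. The weighted Crebbp+/- level thus rested mostly on Crebbp+/- 1, which had the highest Irf9 level and was low in Eif2s3y.

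Stat3 passed in no comparison without array weights. Its log2 level was 6.78, 6.87, 7.96 and 6.90 on Crebbp+/- arrays 1 to 4, and 7.26, 8.09, 6.89 and 7.91 on Ep300+/- arrays 1 to 4, against 7.40, 7.52, 8.23 and 7.67 on WT arrays 1 to 4. Crebbp+/- 3 lay more than 1 log2 unit above the other Crebbp+/- arrays. The log2 fold changes were -0.58 in Crebbp+/- against WT (SE 0.35, limma adjusted p = 0.307), -0.17 in Ep300+/- against WT (adjusted p = 0.968) and -0.41 in Crebbp+/- against Ep300+/- (adjusted p = 0.547). Stat3 lay below WT for all 4 replicate numbers in Crebbp+/- stroma, by -0.77 to -0.27 log2 units. With array weights it passed as lower in Crebbp+/- stroma, at -0.76 against WT (limma adjusted p = 0.0447) and -0.88 against Ep300+/- (limma adjusted p = 0.0140). That fit leaned on Crebbp+/- 1 (weight 5.27), the array of lowest Stat3 level, and gave Crebbp+/- 3 a weight of 0.454. Irf2bp2, outside the family, had log2 fold changes of 0.26, -0.34 and 0.60 in these comparisons (limma adjusted p = 0.595, 0.965 and 0.243). Blocked on the replicate number, the last of these passed (limma adjusted p = 0.0286), as did 24.4% of all probe sets.

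**Figure D3:**
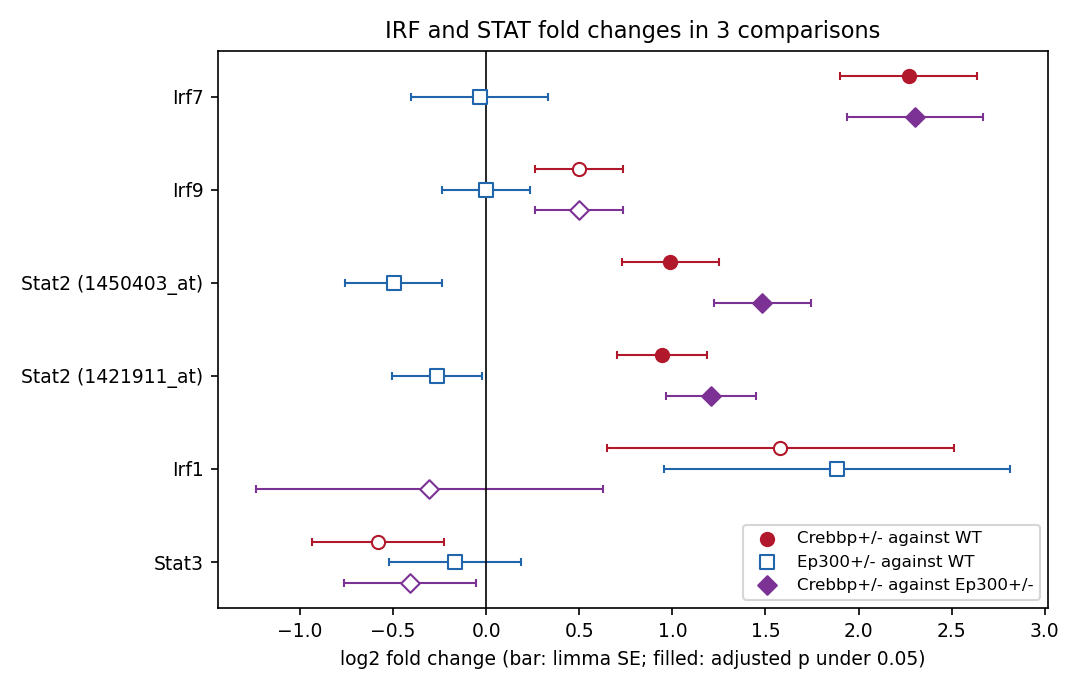
Log2 fold changes (x axis) of the 6 probe sets in Crebbp+/- against WT, Ep300+/- against WT and Crebbp+/- against Ep300+/-, with limma SE bars, filled where the adjusted p was under 0.05. Irf7 and both Stat2 probe sets are filled in the comparisons with Crebbp+/- on top, and none is filled for Ep300+/- against WT.

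Counted together, 3 of the 6 probe sets passed in Crebbp+/- against WT, all higher. Among all 3109 probe sets 6.18% passed in either direction and 5.02% were higher. Set against Ep300+/-, the same 3 passed, again all higher, beside 6.40% of all probe sets in either direction and 4.89% higher. In Ep300+/- against WT 0 of 6 passed by limma and 0 had an unadjusted p under 0.05, beside 0% of all probe sets passing and 126 with an unadjusted p under 0.05. All 4 Crebbp+/- arrays lay above all 4 WT arrays for 4 of 6 probe sets (10.4% of all probe sets), and above all 4 Ep300+/- arrays for 3 of 6 (9.13%). No probe set separated Ep300+/- from WT arrays in either direction (4.15% of all probe sets). Blocked on the replicate number, 4 of 6 passed in Crebbp+/- against WT, Irf1 being added, beside 26.1% of all probe sets, while the shares of all probe sets were 0.0322% in Ep300+/- against WT and 24.4% in Crebbp+/- against Ep300+/-. The members' median log2 fold change was 0.97 in Crebbp+/- against WT, beside 0.24 over all probe sets, -0.10 in Ep300+/- against WT, beside 0.049, and 0.85 in Crebbp+/- against Ep300+/-, beside 0.025. The heterozygotes share their WT arrays in these comparisons. All analysed probe sets reached an interquartile range of 0.5001 over the 12 arrays, and flat ones are missing. High Crebbp+/- arrays can themselves widen that range, so a member may be counted because it is high there. Irf9, at 0.515, lay near the limit. The counts therefore do not give a share of all IRFs and STATs, and the same holds for the lists below.

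The counts moved with single arrays. In Crebbp+/- against WT 0 of 6 passed without Crebbp+/- 1, Crebbp+/- 2 or WT 4, and 1 of 6 without Crebbp+/- 3, Ep300+/- 1, WT 1, WT 2 or WT 3, while 0 passed without both arrays low in Eif2s3y. Set against Ep300+/-, 0 passed without Crebbp+/- 1, without Ep300+/- 1 or without both low arrays, and at least 2 without any other single array. The median over all probe sets was itself 0.24 higher in Crebbp+/- than in WT stroma. Relative to that shift, after quantile normalization, Irf7 was 2.07 log2 units higher (limma adjusted p = 0.00846), and 1 of the 6 passed. Of the calls over all probe sets, 156 were higher and 36 lower as deposited, and 120 were higher and 72 lower after quantile normalization.

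Among themselves the ISGF3 genes and Irf7 varied together over the 12 arrays. Irf7 correlated with Irf9 at r = 0.921 and with Stat2 at 0.937 (1421911_at) and 0.878 (1450403_at). Within genotypes, over deviations from the means, the link with Irf9 was 0.878 and those with Stat2 were 0.684 and 0.479. Irf9 and Stat2 correlated at 0.843 (1421911_at) and 0.753 (1450403_at) over the 12 arrays. Within genotypes these fell to 0.636 and 0.372. Irf1 correlated with Irf9 at 0.555, with Stat2 at 0.221 and -0.00385, and with Stat3 at 0.109. Stat3 ran at -0.448 with Irf7. The coefficients share arrays, genotypes and normalization and are given as descriptions.

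Different genes ran with Irf7 and with Irf1. By Pearson's r over the 12 arrays, among 1969 other genes, Irf7 was followed most closely by Oasl2 (0.988), a 2'-5' oligoadenylate synthetase relative, Ifit3 (0.984), an antiviral tetratricopeptide protein, and Rnf213 (0.979), an interferon-induced ubiquitin ligase. Next came Oas1a (0.977), Igtp (0.976), a GTPase of the immunity-related family, Ifit2 (0.976), Dhx58 (0.975), a regulator of RNA sensing, and Usp18 (0.974), which removes ISG15 and dampens interferon receptor signalling. Without the Crebbp+/- arrays, over the other 8, these r were 0.889 to 0.980. The genes were picked over the 12 arrays, which include these 8, so this is no separate check of their likeness. Their r with Irf1 was 0.361 to 0.536.

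The genes most like Irf1 were Dusp2 (0.992), a nuclear phosphatase that inactivates MAP kinases, Clec4e (0.987), a macrophage C-type lectin, Gadd45b (0.986), a stress sensor, and Mxd1 (0.984), a MYC antagonist. Nr4a1 (0.981), an orphan nuclear receptor, Tnfaip3 (0.981), the NF-kB inhibitor A20, Cd83 (0.980), an activation marker of antigen-presenting cells, and Hilpda (0.979), a lipid droplet protein, completed the group. Their r with Irf7 was 0.374 to 0.527. Over all genes the median r was 0.217 with Irf7 and -0.051 with Irf1.

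The groups behaved differently between heterozygotes. Of the 8 genes like Irf7, the log2 fold changes in Crebbp+/- against WT were 0.85 to 2.02, and only Rnf213 missed the threshold (limma adjusted p = 0.0568), while in Ep300+/- against WT they were -0.093 to 0.37. Usp18 had 2.02 and 0.37, and Ifit3 had 1.84 and 0.049. Of the 8 genes like Irf1 none passed limma in any comparison, with log2 fold changes of 1.11 to 3.32 in Crebbp+/- and 1.41 to 3.88 in Ep300+/- against WT. Dusp2 stood at 8.33, 5.48, 12.53 and 4.48 on Crebbp+/- arrays 1 to 4, and 4.75, 9.43, 12.21 and 6.69 on Ep300+/- arrays 1 to 4, against 3.0004, 4.25, 6.58 and 3.70 on WT arrays 1 to 4. As for Irf1, array 3 was the highest of each genotype. Since these genes were chosen for their likeness to Irf7 or Irf1, their fold changes restate that pattern and are no further evidence of it.

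**Figure D4:**
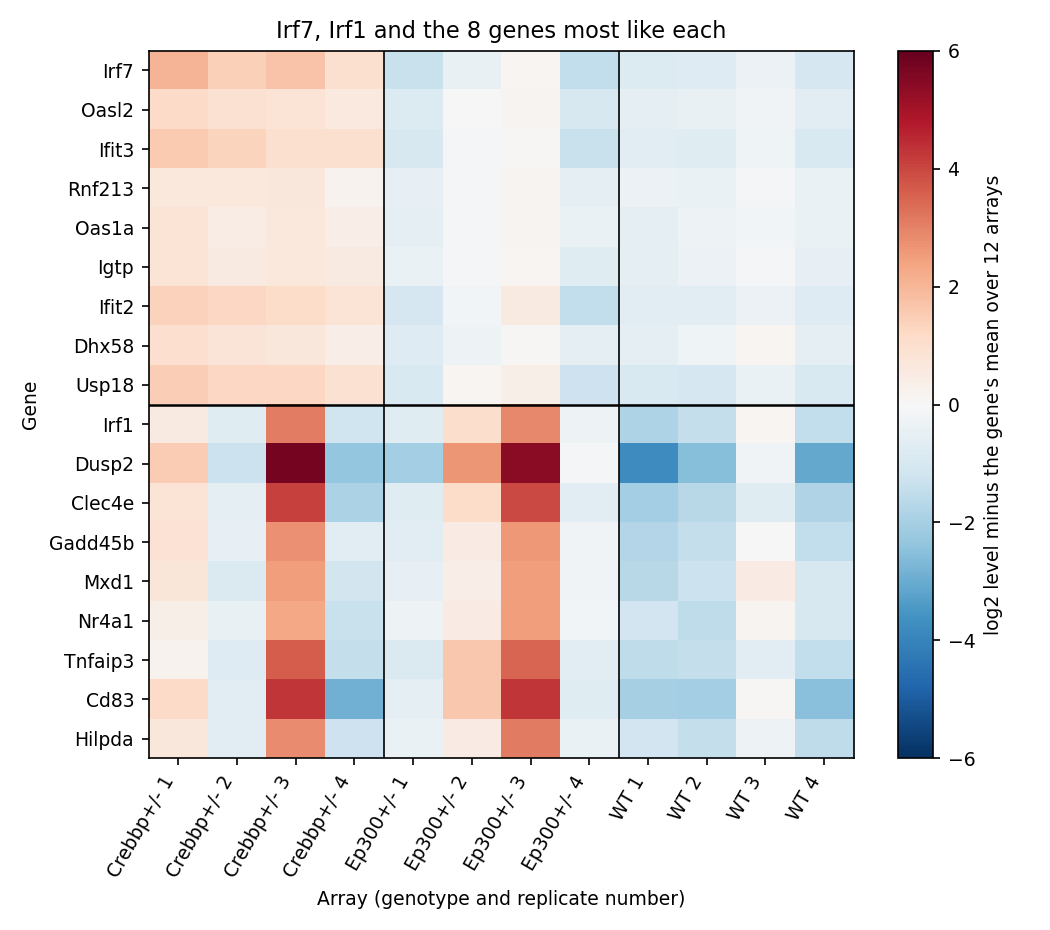
Log2 level minus the gene's mean over the 12 arrays (colour) for Irf7, Irf1 and the 8 genes most like each (rows), by array (columns). The upper block is high on all 4 Crebbp+/- arrays, and the lower block is high on Crebbp+/- 3 and Ep300+/- 3, with Dusp2 at 12.53 and 12.21 there.

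The promoter of Irf7 is shown beside those of Irf1, of Stat2 and of Ifit3, one of the genes most like Irf7, because these genes moved with the Crebbp+/- arrays or, for Irf1, apart from them. Each window runs from 250 bases before to 50 after a transcription start in RefSeq, build GRCm38.p6, 5′ to 3′ on the gene's strand. They lie at chr7:141266375-141266674 on the minus strand for Irf7, and on the plus strand at chr11:53769764-53770063 for Irf1, chr10:128270248-128270547 for Stat2 and chr19:34583279-34583578 for Ifit3. Capitals mark matches, on either strand, to the ISRE core GAAANNGAA, the STAT site (GAS) TTCNNNGAA, the NF-kB consensus or the cAMP response element (CRE) TGACGTCA.
Irf7: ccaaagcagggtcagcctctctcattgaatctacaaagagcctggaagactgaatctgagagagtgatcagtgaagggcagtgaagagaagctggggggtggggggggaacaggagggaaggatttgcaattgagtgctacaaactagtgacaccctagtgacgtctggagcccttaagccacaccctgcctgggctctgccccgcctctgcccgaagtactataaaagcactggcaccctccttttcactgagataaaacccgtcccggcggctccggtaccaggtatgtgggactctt
Irf1: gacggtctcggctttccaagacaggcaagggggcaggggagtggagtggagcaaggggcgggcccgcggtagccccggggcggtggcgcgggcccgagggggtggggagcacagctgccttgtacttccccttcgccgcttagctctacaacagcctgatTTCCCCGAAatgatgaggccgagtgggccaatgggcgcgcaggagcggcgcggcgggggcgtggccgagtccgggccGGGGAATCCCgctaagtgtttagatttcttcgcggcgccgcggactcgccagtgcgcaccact
Stat2: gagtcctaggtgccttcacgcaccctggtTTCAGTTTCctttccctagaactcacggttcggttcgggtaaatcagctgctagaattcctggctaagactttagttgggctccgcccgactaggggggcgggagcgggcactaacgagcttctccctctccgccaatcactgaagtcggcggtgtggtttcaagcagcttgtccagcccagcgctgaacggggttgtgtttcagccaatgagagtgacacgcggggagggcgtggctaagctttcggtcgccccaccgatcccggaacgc
Ifit3: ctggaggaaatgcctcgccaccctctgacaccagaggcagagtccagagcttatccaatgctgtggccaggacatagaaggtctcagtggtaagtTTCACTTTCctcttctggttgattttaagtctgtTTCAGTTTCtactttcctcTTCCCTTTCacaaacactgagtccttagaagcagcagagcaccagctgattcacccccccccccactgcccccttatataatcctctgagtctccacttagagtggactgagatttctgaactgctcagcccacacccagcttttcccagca

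In the Irf1 window the capitals mark a GAS match, TTCCCCGAA, whose first base lies 90 bases before the start, and an NF-kB match, GGGGAATCCC, 13 bases before it. In the Stat2 window they mark an ISRE match on the minus strand, TTCAGTTTC, 221 bases before the start, and in the Ifit3 window ISRE matches on the minus strand at 155, 121 and 102 bases before it. The Irf7 window held none of these letters, nor did the windows of Irf9 and Stat3 or a further Irf1 window. Among all 32851 windows in the RefSeq table, 8.56% held an ISRE core match, 8.30% a GAS match, 4.51% an NF-kB match and 1.79% a CRE match. Of the 8 genes most like Irf7, 6 had windows, and 3 of them held an ISRE match (Ifit3, Oas1a and Igtp), 3 a GAS match, 1 an NF-kB match and 0 a CRE match. Of the 8 most like Irf1, 7 had windows, and 2 held an NF-kB match (Nr4a1 and Tnfaip3) and 0 an ISRE, GAS or CRE match. A match describes letters in a window and shows no binding.

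The pathway around the IRFs and STATs was followed through 10 gene lists. Upstream, the receptor subunit Ifnar1 was the 1 measured of 14 listed interferon ligands and receptors and had log2 fold changes of 0.0074 in Crebbp+/- and -0.0025 in Ep300+/- against WT (limma adjusted p = 0.987 and 0.999). Jak1, the kinase bound to interferon receptors and the 1 measured of 4 Janus kinases, had 0.998 in Crebbp+/- against WT (SE 0.28, limma adjusted p = 0.0525, and 0.00816 blocked on the replicate number) and 0.23 in Ep300+/- against WT. Of the sensors and adaptors upstream of IRFs, 5 of 23 were measured. In Crebbp+/- against WT, where 5.02% of all probe sets rose, 4 of the 5 rose and 0 fell. They were Zbp1, a nucleic acid sensor (2.04 log2 units, SE 0.44, limma adjusted p = 0.0219), the RNA helicases Ifih1 (1.18) and Ddx58 (1.01), known as MDA5 and RIG-I, and Dhx58 (1.03). Tlr2, a receptor for bacterial lipoproteins, was the one that did not pass (0.61). The count of 4 was 0 without Crebbp+/- 1, Crebbp+/- 2, WT 2, WT 3 or WT 4, 1 without Crebbp+/- 3, Ep300+/- 1, Ep300+/- 2 or WT 1, 2 after quantile normalization or median centring, and 0 without both arrays low in Eif2s3y. In Ep300+/- against WT 0 of 5 passed by limma, and 0 had an unadjusted p under 0.05, with Tlr2 at 0.87, Ifih1 at 0.45, Zbp1 at 0.35 and Dhx58 at -0.093.

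Downstream, antiviral effectors induced through IRFs and ISGF3 were higher in Crebbp+/- stroma. Of 39 listed 28 were measured. In Crebbp+/- against WT 18 of them rose, beside 5.02% of all probe sets, none fell and 10 missed the threshold. Their median log2 fold change was 1.42, beside 0.24 over all probe sets, and 28 of 28 were positive. Those of smallest p were Ifit3 (1.84, SE 0.33, limma adjusted p = 0.0129), Xaf1 (1.47, SE 0.26, 0.0129), an inhibitor of the apoptosis inhibitor XIAP, Oasl1 (2.95, SE 0.55, 0.0148) and the ubiquitin ligase Herc6 (1.38, SE 0.26, 0.0159). Set against Ep300+/- stroma 11 rose, beside 4.89% of all probe sets, and 0 fell, with a median of 1.07. Blocked on the replicate number 23 passed there, beside 24.4% of all probe sets. For Ep300+/- against WT 0 of 28 passed by limma and 0 had an unadjusted p under 0.05, with a median of 0.26 and 23 of 28 positive. Without Crebbp+/- 3 and Ep300+/- 3 that median was -0.031 with 11 of 28 positive, and after quantile normalization 0.098 with 15 positive. The fit without those arrays kept WT 3, so number 3 was left out on the heterozygous side only. Those of smallest p in Ep300+/- against WT were Mx1, a dynamin-like GTPase (-1.02), Ifi27l2a (1.25), Herc6 (0.36) and Slfn2 (0.50). Some of these genes, and the interferon theme itself, were known from earlier results of these data. The count of 18 fell to 0 without Crebbp+/- 1, Crebbp+/- 2 or WT 4, to 2 without WT 2, to 6 without Crebbp+/- 3 or WT 3 and to 11 without WT 1. Without both arrays low in Eif2s3y it was 0, with a median of 1.32 and 28 of 28 still positive.

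By Pearson's r over the 12 arrays, most genes known as targets of interferon gamma and IRF1 lay nearer Irf7 than Irf1. Of 33 listed 18 were measured. In Crebbp+/- against WT 5 rose, beside 5.02% of all probe sets, and 0 fell, with a median log2 fold change of 0.98. The risen genes were Il18bp, the IL-18 binding protein (1.09, SE 0.23, limma adjusted p = 0.0184), the GTPases Igtp (1.02), Ifi47 (1.03) and Gbp2 (1.24), and Irgm1 (0.91), named because it completes the count. Blocked on the replicate number 12 passed, beside 26.1% of all probe sets, while after quantile normalization 1 passed and after median centring 2 did. The count was 0 without Crebbp+/- 1, 2 or 3 or without WT 3 or 4, 1 without WT 1, WT 2 or Ep300+/- 1, 2 without Ep300+/- 2, 8 without Ep300+/- 3 and 10 without Ep300+/- 4. Set against Ep300+/- stroma 3 passed, all higher, beside 4.89% of all probe sets. Blocked on the replicate number 10 passed there, beside 24.4%. For Ep300+/- against WT 0 passed by limma and 0 had an unadjusted p under 0.05, with a median of 0.17. There Cxcl10, a chemokine for T cells, had 2.19 and Cd274, the checkpoint ligand PD-L1, had 2.05, beside Casp4 (0.74) and Serping1 (-0.47). In Crebbp+/- against WT Cxcl10 and Cd274 had 2.58 and 2.11 and did not pass.

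The NF-kB targets, inflammatory genes induced through NF-kB, lay with Irf1. Of 33 listed 22 were measured and 0 passed by limma in any comparison, while 1, 3 and 0 had an unadjusted p under 0.05 in Crebbp+/- against WT, Ep300+/- against WT and Crebbp+/- against Ep300+/-. The median log2 fold change was 1.09 in Crebbp+/- and 1.30 in Ep300+/- against WT. Those of smallest p in Ep300+/- were the chemokine receptor-like Ccrl2 (2.65), the NF-kB inhibitor Nfkbia (1.05), and the cytokines Tnf (2.86) and Il1b (3.88), and in Crebbp+/- the chemokine Ccl2 (1.79), Ccrl2 (2.32), the chemokine Ccl7 (1.23) and Il1b (3.49). Without Crebbp+/- 3 and Ep300+/- 3 the medians were 0.29 in Crebbp+/- and 0.72 in Ep300+/- against WT, beside 0.27 and 0.082 over all probe sets. Here too WT 3 was kept. Without both arrays low in Eif2s3y the median in Crebbp+/- against WT was 0.11, with 14 of 22 positive, beside 0.196 over all probe sets. Blocked on the replicate number 2 of the 22 passed in Crebbp+/- against WT, Ccrl2 and Il1b, beside 26.1% of all probe sets.

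Likeness to Irf7 or Irf1 sorted these lists as a description with no test. Of the 28 effectors, 26 had a higher r with Irf7 than with Irf1, the exceptions, named after their values were seen, being Ifi204 and Slfn2, and the median r was 0.929 with Irf7 and 0.480 with Irf1. Of the 18 interferon gamma and IRF1 targets, 15 had a higher r with Irf7, the exceptions being Cxcl10, Casp4 and Cd274, and the median r was 0.874 and 0.465. Of the 22 NF-kB targets, 21 had a higher r with Irf1, the exception being the adhesion molecule Vcam1, with a median r of 0.352 with Irf7 and 0.952 with Irf1. Over all 1969 other genes 60.2% had a higher r with Irf7.

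**Figure D5:**
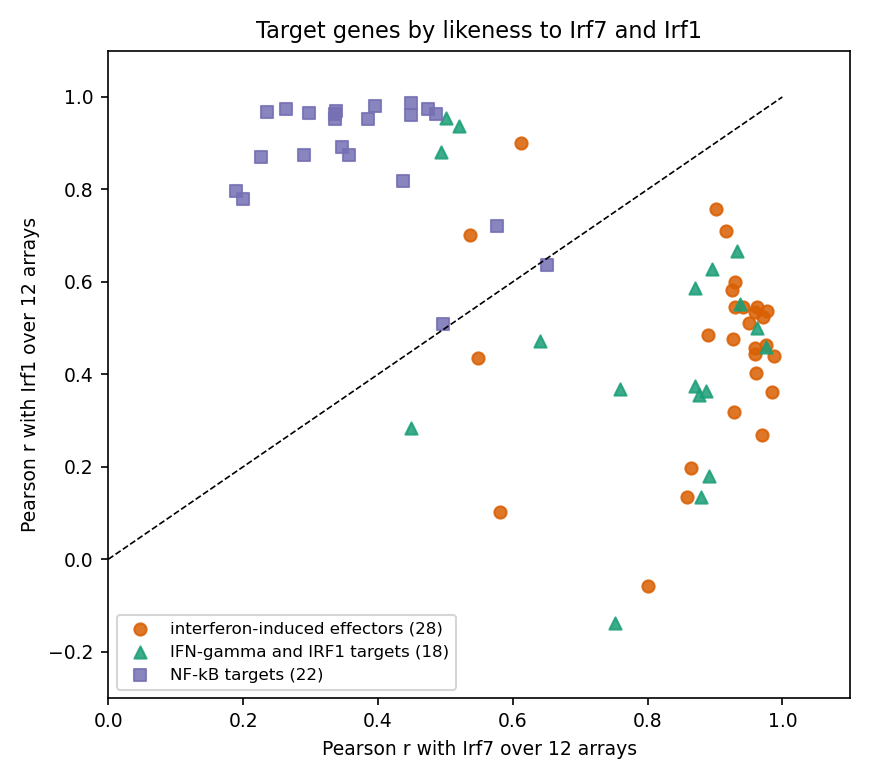
Pearson r over the 12 arrays with Irf7 (x axis) and with Irf1 (y axis) for each measured gene of 3 lists, with the dashed line where both are equal. Of the interferon-induced effectors 26 of 28 lie below the line, and of the NF-kB targets 21 of 22 lie above it.

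The remaining lists held few calls. Of 19 feedback inhibitors of JAK-STAT signalling 6 were measured, and Usp18 rose in Crebbp+/- against WT (2.02, SE 0.35, limma adjusted p = 0.0129). There Socs2 (-0.42), Pias2 (-0.30) and Socs6 (-0.26) did not pass. In Crebbp+/- against Ep300+/- Usp18 was higher (1.65, limma adjusted p = 0.0216) and the cytokine signalling suppressor Socs2 lower (-0.93, limma adjusted p = 0.0372). In Ep300+/- against WT 0 passed by limma and 0 had an unadjusted p under 0.05, with Socs2 at 0.51, Socs3 at 1.02, Ptpn2 at 0.37 and Socs6 at 0.29. Of 21 STAT3 targets and IL-6 family genes 10 were measured and 0 passed by limma in any comparison, with 2, 0 and 1 having an unadjusted p under 0.05 in the same order as above. Blocked on the replicate number, Saa3 (limma adjusted p = 0.0141) and Il6st (0.0302) passed in Crebbp+/- against WT, both higher. These are 2 of the 10, beside 26.1% of all probe sets. Against Ep300+/- 1 of the 10 passed, beside 24.4%. The acute phase gene Saa3 had 2.02 in Crebbp+/- and 1.496 in Ep300+/- against WT, the cytokine Osm 0.92 and 1.06, the AP-1 gene Junb 0.95 and 1.08, and the kinase Pim1 1.01 and 1.39, while Il6st, the shared receptor subunit of the IL-6 family, had 1.34 and -0.042.

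Of 14 STAT5 targets 7 were measured, and 0 passed by limma against WT in either heterozygote, with 0 having an unadjusted p under 0.05. Socs2, also in this list, was the 1 that passed between the heterozygotes. Blocked on the replicate number 2 passed there, beside 24.4% of all probe sets. Bcl2l1 had 0.43 in Crebbp+/- and Bcl6 0.82 in Ep300+/- against WT. Of 16 STAT6 and IL-4 targets 5 were measured and 0 passed by limma in any comparison, with 1, 0 and 1 having an unadjusted p under 0.05. Blocked on the replicate number, 1 of the 5, Clec10a, passed in Crebbp+/- against WT (limma adjusted p = 0.0234), beside 26.1% of all probe sets. In Crebbp+/- against Ep300+/- 1 of the 5 passed, beside 24.4%. The macrophage lectin Clec10a had 1.25 in Crebbp+/- and -0.19 in Ep300+/- against WT, the enzyme Arg1 1.97 and 1.44, and Klf4 -0.24 and -0.30. Pparg had 0.65 in Crebbp+/- and Chil3 0.41 in Ep300+/- against WT.

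Markers of endothelial cells moved with Irf7. Of 13 measured, 8 rose in Crebbp+/- against WT (5.02% of all probe sets) and 12 in Crebbp+/- against Ep300+/- (4.89%). The mean log2 level of the list was 9.67, 9.35, 9.63 and 7.55 on Crebbp+/- arrays 1 to 4, and 6.45, 6.82, 7.18 and 6.09 on Ep300+/- arrays 1 to 4, against 8.03, 6.68, 6.72 and 6.78 on WT arrays 1 to 4. Its r with Irf7 was 0.897 and with Irf1 0.303 over the 12 arrays. Crebbp+/- 4, with an endothelial mean below that of WT 1, had an Irf7 level of 10.10 against 8.30 on WT 1. Of the macrophage markers 1 of 8, Cd163, rose in Crebbp+/- against WT (5.02% of all probe sets). The macrophage list mean had r = 0.586 with Irf7 and 0.389 with Irf1. The defining markers of dendritic cells, lymphocytes and granulocytes were not among the genes analysed here. The part of endothelial or macrophage content in the levels of Irf7, Stat2 and Irf1 was not tested.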

How the data were processed

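The deposited values are log2 expression levels made by the authors with GCRMA, per the labels. After removal of 18 controls from 3127 probe sets, 3109 remained. Their interquartile ranges all reached 0.5001, with at least 3 arrays each at or above log2 of 100, so flat and dim genes are missing from every count. Of these, 2486 had 1 gene symbol, 176 several and 447 none. The members and lists were chosen with earlier results of these data known. A single model with 3 genotype means was fitted over the 12 arrays by lmFit and eBayes (limma 3.58.1, R 4.3.3), and p-values were adjusted by Benjamini-Hochberg over all probe sets and called under 0.05. Named genes were the members, the 8 genes of highest Pearson r with Irf7 or Irf1, and up to 4 of smallest p per list and heterozygote. A gene with several probe sets was read from that of highest mean. The script was tested on simulated data. The number of arrays limits the precision. Same-numbered arrays deviated together for Crebbp+/- and WT (r 0.448 to 0.603) and for Crebbp+/- and Ep300+/- (0.294 to 0.513), and for Ep300+/- and WT r was 0.0593 to 0.683, so only the first comparisons count as paired, on a hint from the data. Alternatives were array weights, median centring, quantile normalization, fits of 2 genotypes, trended and robust eBayes, leaving out dim probe sets, a replicate block, Eif2s3y as a covariate and leaving out arrays. Leaving out both arrays low in Eif2s3y, and the list counts under each alternative, were added after seeing the data.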

Additional observations from a re-analysis of the deposited data

Results flagged for a closer look

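Of 21 groups of 4 arrays checked, for the 6 IRF and STAT probe sets and Irf2bp2 in 3 genotypes, 1 held an array far from the rest. Stat3 was at 7.96 on Crebbp+/- 3, while the nearest Crebbp+/- array was at 6.90 and the lowest at 6.78, a gap of 0.892 of the whole range and above Dixon's critical value for 4 arrays. Chance gives about 1 such group in 20.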

How the results depend on the processing

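Irf7 was higher in Crebbp+/- stroma under every alternative run, but its call was lost with Eif2s3y as a covariate (2.05 log2 units against WT, 2.11 against Ep300+/-) and without both arrays low in it (1.94 and 1.97). Leaving out 1 array gave 2.11 to 2.46 against WT and 2.08 to 2.5999 against Ep300+/-, and -0.33 to 0.19 for Ep300+/- against WT, where array weights gave 0.062. Irf1 passed in Crebbp+/- against WT with array weights (1.71) and under the replicate block (1.58). Without 1 array it ranged from 0.70 to 2.11 there, from 1.16 to 2.36 for Ep300+/- against WT and from -1.19 to 0.42 for Crebbp+/- against Ep300+/-. Of the 6 probe sets, in Crebbp+/- against WT 1 passed after quantile normalization or median centring, 6 with array weights (Stat3 as lower), 0 with the Eif2s3y covariate or without both low arrays, and 0 to 3 without 1 array. Against Ep300+/-, 5, 0, 0 and 0 to 3 passed with array weights, the covariate, without both low arrays and without 1 array. The array weights were 5.27, 1.13, 0.454 and 0.434 for Crebbp+/- 1 to 4, so calls made with them rested mostly on Crebbp+/- 1 among the Crebbp+/- arrays.

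Over all probe sets, Crebbp+/- against WT called 1267 with array weights, 812 with the replicate block, 0 with the covariate, 4 without both low arrays and 5 to 383 without 1 array. Ep300+/- against WT called 13 with array weights, 1 under the block, and 0 to 1 without 1 array. Crebbp+/- against Ep300+/- called 51 in the fit of 2 genotypes, 1273 with array weights, 760 under the block, 0 with the covariate, 122 without Crebbp+/- 3 and Ep300+/- 3, 2 without both low arrays and 2 to 374 without 1 array. Median centring gave 125 higher and 72 lower calls against WT. In Crebbp+/- against WT, 2 sensors passed after quantile normalization or centring, 0 with the covariate or without both low arrays, and 0 to 4 without 1 array. Of the effectors 0 passed with the covariate or without both low arrays, and 0 to 20 without 1 array. Of the interferon gamma targets 1 passed after quantile normalization, 2 after centring, 8 in the fit of 2 genotypes, 15 with array weights, 12 under the block, 0 with the covariate or without both low arrays, and 0 to 10 without 1 array.

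Values near 0 turned sign. Irf9 in Ep300+/- against WT was -0.16 after quantile normalization, -0.057 after centring, -0.045 with array weights, -0.0080 with the covariate, -0.14 without Crebbp+/- 3 and Ep300+/- 3, and -0.14 to 0.092 without 1 array. Stat3 there was 0.11 with array weights, 0.050 without that pair and -0.35 to 0.050 without 1 array. Fits without that pair kept WT 3. Ifnar1 in Crebbp+/- against WT was -0.031, -0.19, -0.083 and -0.12 after quantile normalization, centring, array weights and without that pair, and -0.15 to 0.17 without 1 array. In Ep300+/- against WT it was 0.29 with array weights, 0.0034 with the covariate, 0.16 without the pair and -0.17 to 0.16 without 1 array, and Dhx58 was -0.25 to 0.057. With the covariate Osm was -0.10 and Junb -0.097 in Crebbp+/- against WT, and Klf4 was 0.097 with array weights. Fewer Crebbp+/- arrays remain when the low ones are left out, and otherwise the cause was not tested.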
